A study of Mus musculus with 6 samples.

Results

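A set of 10 mouse genes of activated microglia, phagocytes and border macrophages was followed in total RNA of the optic nerve. The genes were listed by name (Trem2, Tyrobp, Apoe, Lpl, Cd68, Cst7, Itgax, Spp1, Mrc1 and Cd163), with earlier results of these data known. All 10 were matched by symbol among the 52636 genes of the combined table. The study holds 6 libraries, 3 whose treatment label is mCherry, the name of a red fluorescent protein, and 3 called hND6, whose label reads mutant human ND6T14484C. The ND6 protein belongs to respiratory complex I and is normally made inside mitochondria. The treatment text, a lentivirus with the mutant gene injected into the eye, stands beside both groups alike. What the mCherry eyes received is therefore known only from the group's name and treatment label. Strain, age, interval after injection and the promoter of the vector are not given in the sources used here. The question asked of these genes was whether their levels differed between hND6 and mCherry.

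Microglia are the resident macrophages of the brain, retina and optic nerve. In disease, injury or demyelination they can pass from a resting state into a phagocytic state that has been named disease-associated. The receptor TREM2 senses lipids and cell debris, signals through the adaptor TYROBP, and is needed for the full form of that state, in which genes of lipid handling (Apoe, Lpl), lysosomes (Cd68, Cst7), adhesion (Itgax) and secreted matrix (Spp1) are high. Border macrophages are a separate population that lines the meninges and vessels, and they are known for the scavenger receptors encoded by Mrc1 and Cd163.

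None of the 10 genes passed the test between the groups, and the highest level of most of them was found in an mCherry library. In library mCherry 1, 9 of the 10 genes stood at their highest level of the 6 libraries, against 18.2% of all tested genes. The remaining mCherry libraries held the lowest level of all 10 genes. The hND6 libraries lay in between for Trem2, Tyrobp, Apoe, Cd68, Spp1 and Cd163, and the spread among the hND6 libraries was smaller for these 6 genes than the spread among the mCherry libraries. The level in mCherry 1 exceeded the mean of mCherry 2 and 3 by between 1.35 times (Mrc1) and 13.5 times (Cst7).

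All libraries carried high levels of the myelin and astrocyte transcripts that mark optic nerve. Summed over 6 oligodendrocyte genes they ran from 4478 to 7424 FPKM (fragments per kilobase of exon scaled to library size, a level per gene length), and over 7 astrocyte genes from 1478 to 2492 FPKM. Genes of resting microglia, summed over 12 genes, ran from 168 to 221 FPKM in mCherry and from 226 to 270 FPKM in hND6. The total FPKM over all genes differed too. It ran from 365375 (mCherry 1) to 411248 in mCherry and from 417385 to 450685 in hND6. The list sums given here were not adjusted for this total. Some libraries stood apart in transcripts of other tissues. Forebrain neuron genes summed to 253 FPKM in mCherry 3 and 96.5 FPKM in hND6 1 against at most 27.1 FPKM elsewhere, and photoreceptor genes to 181 FPKM in hND6 2 against at most 6.20 FPKM. Library mCherry 1 was in neither position. Red blood cell genes summed to between 180 and 468 FPKM in mCherry and between 1365 and 2603 FPKM in hND6, and B and plasma cell genes to between 27.7 and 32.1 and between 53.0 and 85.1 FPKM. Neutrophil genes summed to between 11.2 and 18.6 FPKM in mCherry and between 5.41 and 28.1 FPKM in hND6. The part of the lists that moved with the groups in the values below was not tested. Genes of adipocytes, another cell type known for Lpl, summed to at most 0.21 FPKM, with Cidec, Lep and Cfd at 0 throughout. Recovered reads assigned to genes ran from 20253637 to 34758873 per library, and mCherry 1 had 30500490. Sex was inferred from the levels of Xist and of Y chromosome genes. By this measure libraries of both sexes were present in each group, and mCherry 1, mCherry 3 and hND6 3 were female. Because these are bulk samples, more cells of a type cannot be told apart from more RNA per cell. Both sexes in each group place at least 2 animals there, but separate animals are not named for the libraries. The p-values therefore measure only the spread between these samples, which may in part be technical.

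Trem2, the lipid-sensing receptor (chromosome 17, 48346401 to 48352273, plus strand, mouse build mm10), stood at 41.6, 14.9 and 14.2 FPKM in mCherry 1, 2 and 3 and at 25.4, 27.2 and 31.4 FPKM in hND6 1, 2 and 3. The groups overlapped, since mCherry 1 lay above and the other mCherry libraries below all of hND6. The mean was 28.0 ± 3.07 FPKM for hND6 against 23.6 ± 15.6 FPKM for mCherry (SD, n = 3 each). The difference on the log2 scale was 0.42 ± 0.40 (SE; limma adjusted p = 0.66). All such fold changes are hND6 minus mCherry on the log2(FPKM + 0.5) scale, on which differences of low genes come out too small, and p-values were adjusted over all 16157 genes tested.

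Tyrobp, the adaptor that carries the signal of TREM2 into the cell (chromosome 7, 30413760 to 30417582), also had hND6 between the mCherry libraries. It stood at 89.0, 28.65 and 35.2 FPKM in mCherry 1 to 3 and at 57.6, 61.7 and 72.3 FPKM in hND6 1 to 3. Again mCherry 1 was above and the other mCherry libraries were below every hND6 library. The log2 fold change was 0.50 ± 0.41 (limma adjusted p = 0.603). The level of Trem2 divided by that of Tyrobp varied less than either gene. It lay between 0.403 and 0.521 in all 6 libraries and was 0.439 ± 0.00407 in hND6 and 0.464 ± 0.0591 in mCherry (SD, n = 3 each). The ratio was steadiest in hND6, while mCherry 3 held its lowest and mCherry 2 its highest value. Each gene differed more than 2 times between the mCherry libraries.

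**Figure D1:**
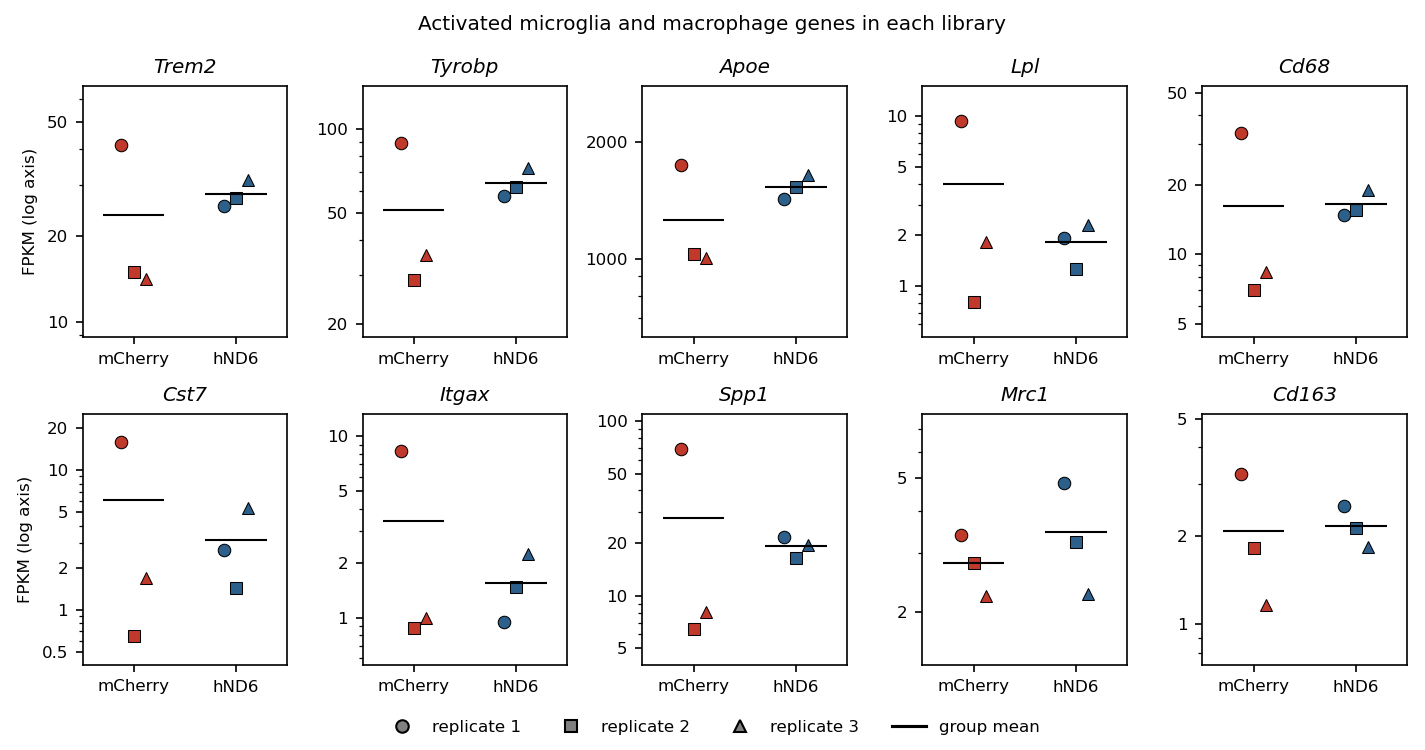
Level of each of the 10 genes in FPKM (logarithmic vertical axis, scale differing between panels) in the 3 mCherry (red) and 3 hND6 (blue) libraries. Symbols give the replicate and horizontal lines the group mean. Replicate 1 of mCherry is the highest point in every panel except that of Mrc1, where hND6 replicate 1 is highest at 4.86 FPKM.

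Apoe encodes apolipoprotein E, the main lipid carrier secreted in nervous tissue, which astrocytes also make in quantity (chromosome 7, 19696109 to 19699188, minus strand). It was by far the most abundant of the 10 genes. Its levels were 1750.3, 1027 and 1001 FPKM in mCherry 1 to 3 and 1430.4, 1537 and 1643 FPKM in hND6 1 to 3. The order of libraries was that of Trem2, but the distance between mCherry 1 and the mean of mCherry 2 and 3 was smaller, at 1.73 times. The log2 fold change was 0.33 ± 0.27 (limma adjusted p = 0.602), and its sign depended on the scaling: with quantile normalisation it was -0.37. The summed level of astrocyte genes was also higher in mCherry 1 (2011 FPKM) than in mCherry 2 (1904) and mCherry 3 (1478), and their part in the Apoe values was not tested.

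Lpl, lipoprotein lipase (chromosome 8, 68880491 to 68906934), separated mCherry 1 from all other libraries. It stood at 9.39 FPKM there, at 0.806 and 1.81 FPKM in mCherry 2 and 3, and at 1.93, 1.27 and 2.31 FPKM in hND6 1 to 3. The 5 libraries other than mCherry 1 thus ranged from 0.806 to 2.31 FPKM with the groups interleaved. The log2 fold change was -0.44 ± 0.72 (limma adjusted p = 0.806). It was 0.40 without mCherry 1.

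Cd68, a heavily glycosylated protein of macrophage lysosomes (chromosome 11, 69664213 to 69666153, minus strand), stood at 33.3, 7.01 and 8.38 FPKM in mCherry 1 to 3 and at 14.8, 15.6 and 18.9 FPKM in hND6 1 to 3. As with Trem2, hND6 lay between the mCherry libraries. The group means were nearly equal, 16.4 ± 2.15 FPKM for hND6 against 16.2 ± 14.8 FPKM for mCherry (SD, n = 3 each). The log2 fold change was 0.36 ± 0.55 (limma adjusted p = 0.792), and -0.041 without mCherry 2.

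Cst7, cystatin F, an inhibitor of lysosomal cysteine proteases (chromosome 2, 150570415 to 150578944), varied most. Its levels were 15.8, 0.642 and 1.70 FPKM in mCherry 1 to 3 and 2.70, 1.44 and 5.36 FPKM in hND6 1 to 3. Library mCherry 1 was 24.7 times mCherry 2, and within hND6 the highest library was 3.74 times the lowest. The difference between the groups was close to 0 beside this spread (log2 fold change -0.059 ± 0.99, limma adjusted p = 0.982). It was 1.06 without mCherry 1 and 0.33 without hND6 2. The lowest value rests on 21 reads, while the 10 genes otherwise had at least 28 reads in each library and Apoe up to 74802.

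Itgax, the integrin subunit CD11c (chromosome 7, 128129547 to 128150657), was near 1 FPKM in 3 libraries and well above that in mCherry 1. Its levels were 8.33, 0.880 and 0.999 FPKM in mCherry 1 to 3 and 0.953, 1.47 and 2.26 FPKM in hND6 1 to 3. Here the hND6 libraries did not lie apart from mCherry 2 and 3, since hND6 1 was below mCherry 3. The log2 fold change was -0.40 ± 0.74 (limma adjusted p = 0.826), and 0.47 without mCherry 1.

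Spp1 encodes osteopontin, a secreted ligand of integrins and CD44 (chromosome 5, 104436192 to 104441043). It stood at 68.7, 6.43 and 8.10 FPKM in mCherry 1 to 3 and at 21.6, 16.4 and 19.5 FPKM in hND6 1 to 3. All 3 hND6 libraries lay above mCherry 2 and 3, and all lay below mCherry 1, which was 3.59 times their mean. The mean FPKM was lower in hND6 (19.2 ± 2.59) than in mCherry (27.7 ± 35.5; SD, n = 3 each), whereas the log2 fold change, which weighs the single high library less, was 0.29 ± 0.85 (limma adjusted p = 0.896). It was -0.32 without mCherry 2, -0.16 without mCherry 3 and 1.34 without mCherry 1. Spp1 overlaps the unnamed transcript Gm42793 on the same strand, so how reads in the overlap were counted is uncertain.

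The border macrophage genes Mrc1 and Cd163 differed in where they were highest. Mrc1, the mannose receptor CD206 (chromosome 2, 14229392 to 14332057), stood at 3.39, 2.80 and 2.24 FPKM in mCherry 1 to 3 and at 4.86, 3.24 and 2.27 FPKM in hND6 1 to 3, with the groups interleaved and hND6 1 highest. Cd163, the haemoglobin scavenger receptor (chromosome 6, 124304700 to 124330527), stood at 3.26, 1.82 and 1.16 FPKM in mCherry 1 to 3 and at 2.54, 2.13 and 1.83 FPKM in hND6 1 to 3. Library mCherry 1 was highest for Cd163, at 2.18 times the mean of mCherry 2 and 3, and only 1.35 times for Mrc1. The log2 fold changes were 0.22 ± 0.27 for Mrc1 (limma adjusted p = 0.736) and 0.12 ± 0.31 for Cd163 (adjusted p = 0.88). Without hND6 1 that of Mrc1 was -0.024, and without mCherry 3 that of Cd163 was -0.16. The microRNA gene Mir511 lies inside Mrc1 on the same strand.

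Read as a list, 7 of the 10 genes lay higher in hND6 and 3 lower, with a median log2 fold change of 0.25 beside -0.01 for all tested genes, of which 48.6% lay higher. Marker lists of other nerve cells had medians of 0.30 for oligodendrocytes (5 of 6 higher) and 0.30 for fibroblasts and meninges (6 of 6). Astrocyte genes had 0.20 (6 of 7) and endothelial genes 0.023 (3 of 6). In limma 0 of the 10 passed the adjusted threshold of 0.05, where 0.0433% of all tested genes did, and 0 had an unadjusted p under 0.05, where 15.2% of all tested genes did. On the recovered reads voom called 0 as well. On the TPM scale, which moved the median of all genes to -0.15, the median of the 10 was 0.13. The groups did not overlap for 0 of the 10, against 22.8% of all tested genes in either direction and 12.6% with hND6 higher. All 10 genes passed the filter of a mean of 0.5 FPKM, and none had a single value under 0.642 FPKM.

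Without mCherry 1 the picture changed. All 10 genes then lay higher in hND6 (49.8% of all tested genes did), the median log2 fold change was 0.76 beside -0.00185 for all genes, and the groups did not overlap for 6 of the 10 (Trem2, Tyrobp, Apoe, Cd68, Spp1 and Cd163), against 33.8% of all tested genes in either direction and 18.9% with hND6 higher in that comparison of 3 libraries with 2. Trem2 had a log2 fold change of 0.92 ± 0.12, Tyrobp of 0.99 ± 0.15, Cd68 of 1.04 ± 0.15 and Spp1 of 1.34 ± 0.16 (limma adjusted p = 0.267 for each). Still 0 of the 10 passed the adjusted threshold, as did 0.00619% of all genes, and 5 had an unadjusted p under 0.05, as did 14.1% of all genes. Leaving out mCherry 3, the library with forebrain transcripts, gave a median of -0.038, leaving out mCherry 2 gave 0.022, and leaving out hND6 1, 2 or 3 gave 0.11, 0.33 and 0.26. The direction of Lpl, Itgax and Cst7 was negative with all libraries and positive without mCherry 1. Leaving out the library highest for 9 of the 10 genes raises their fold changes by construction. Related lists, described below, moved too: 12 of 12 resting microglia genes lay higher (10 without overlap) and 16 of 16 lysosomal genes (14). The counts were 19 of 20 for other disease-associated genes (13 without overlap) and 11 of 15 for lipoprotein genes (3).

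**Figure D2:**
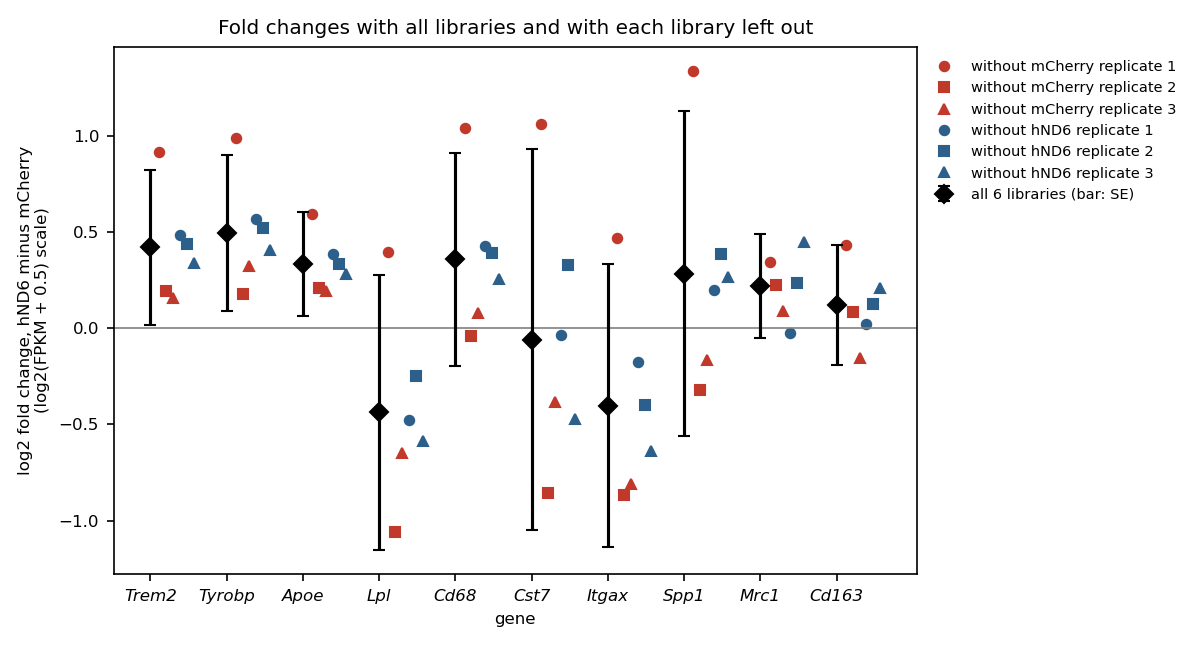
Log2 fold change, hND6 minus mCherry, on the log2(FPKM + 0.5) scale for each gene. Black diamonds with bars are all 6 libraries with the SE, and coloured symbols give the value with 1 library left out. Values without mCherry replicate 1 lie highest for 9 of the genes, from 0.40 for Lpl to 1.34 for Spp1, and those without mCherry 2 or 3 lie at or below the black diamonds except for Mrc1.

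The levels were also set against P2ry12, the purinergic receptor by which resting microglia sense injury, whose level in mCherry 1 (14.0 FPKM) was the lowest of the 3 mCherry libraries, the highest being 15.7 FPKM. In hND6 it lay between 21.4 and 22.9 FPKM. Relative to P2ry12, all 10 genes were highest in mCherry 1. The level of Trem2 was 2.96 times that of P2ry12 in mCherry 1, 0.951 and 0.946 times in mCherry 2 and 3, and between 1.19 and 1.46 times in hND6. The ratio of Apoe to P2ry12 was 125 in mCherry 1 and otherwise between 65.5 and 76.3. On this scale hND6 and the other mCherry libraries lay close together. Since P2ry12 was itself higher in hND6 and lowest in mCherry 1, division by it lowers the hND6 ratios and raises those of mCherry 1. For Spp1 the ratio was 4.90 in mCherry 1, 0.410 and 0.540 in mCherry 2 and 3, and between 0.716 and 1.01 in hND6, where all 3 libraries were above mCherry 2 and 3. Set against the geometric mean of 12 resting microglia genes in place of P2ry12, 9 of the 10 genes were highest in mCherry 1, the exception being Mrc1. That mean was itself higher in mCherry 1 (15.98 FPKM) than in mCherry 2 (11.3) and mCherry 3 (11.5), and the excess of mCherry 1 was smaller on this scale. The ratio in mCherry 1 was 1.97 times that in mCherry 2 for Trem2, against 3.12 times with P2ry12. For Apoe it was 1.21 against 1.91 times, and for Cst7 17.4 against 27.6 times.

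**Figure D3:**
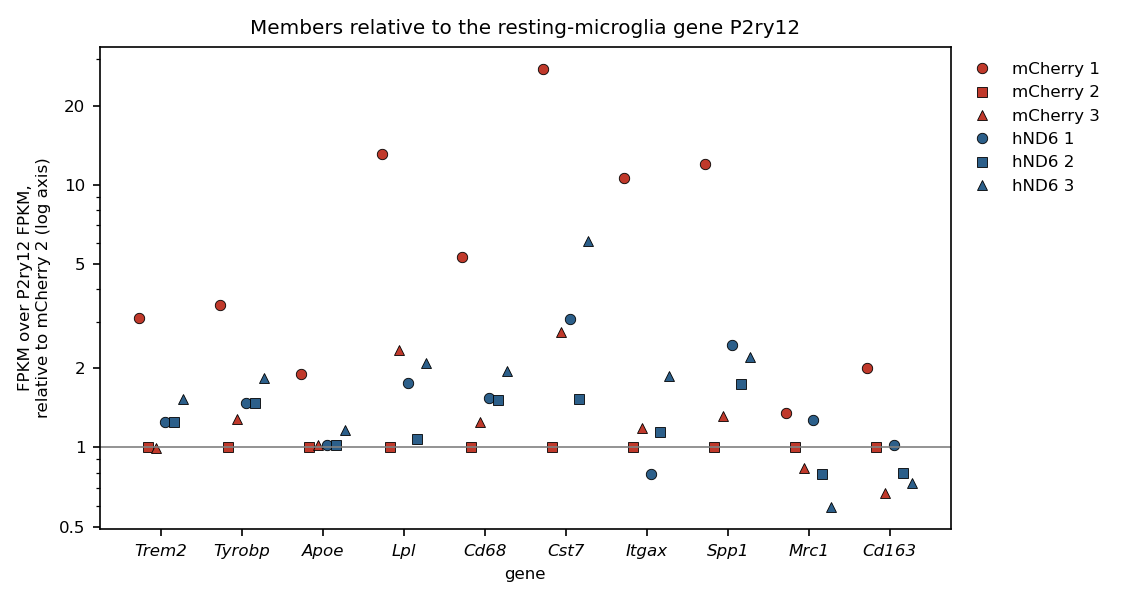
FPKM of each gene divided by the FPKM of P2ry12 in the same library, relative to mCherry 2 (logarithmic vertical axis), for the 3 mCherry (red) and 3 hND6 (blue) libraries. Library mCherry 1 is the highest point for all 10 genes.

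The promoters of Cst7, Spp1, Itgax and Cd68 are shown because these genes are 4 of the 5 with the largest ratio of mCherry 1 to mCherry 2 and 3; the other is Lpl. They are the 250 bases before the RefSeq transcription start (GRCm38.p6), read 5′ to 3′ on the gene's strand. Capitals mark GGAAGT, the core bound by ETS factors such as PU.1, on either strand (ACTTCC on the other), and TGANTCA. The latter is a loose form of the AP-1 element with any base at N, and the pattern is the same on both strands. Both motifs were chosen after the sequences were seen, and they do not overlap each other here.
Cst7, chr2:150570165-150570414, plus strand: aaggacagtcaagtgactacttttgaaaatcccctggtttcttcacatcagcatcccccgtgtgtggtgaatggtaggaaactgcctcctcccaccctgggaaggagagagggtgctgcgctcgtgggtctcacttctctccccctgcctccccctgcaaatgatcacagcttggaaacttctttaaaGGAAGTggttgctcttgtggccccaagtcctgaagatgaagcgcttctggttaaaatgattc
Spp1, chr5:104434861-104435110, plus strand, the upstream of 2 starts: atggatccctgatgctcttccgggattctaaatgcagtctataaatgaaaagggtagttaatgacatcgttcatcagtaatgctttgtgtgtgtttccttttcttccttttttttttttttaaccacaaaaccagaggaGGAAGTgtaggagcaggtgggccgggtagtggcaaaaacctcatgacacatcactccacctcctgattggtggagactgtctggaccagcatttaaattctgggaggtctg
Itgax, chr7:128129300-128129549, plus strand: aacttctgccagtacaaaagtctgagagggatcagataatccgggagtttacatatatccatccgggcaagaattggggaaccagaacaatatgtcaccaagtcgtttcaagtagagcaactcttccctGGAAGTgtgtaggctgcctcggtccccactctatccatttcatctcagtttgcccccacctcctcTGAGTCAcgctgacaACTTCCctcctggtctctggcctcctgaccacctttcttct
Cd68, chr11:69666171-69666420, minus strand: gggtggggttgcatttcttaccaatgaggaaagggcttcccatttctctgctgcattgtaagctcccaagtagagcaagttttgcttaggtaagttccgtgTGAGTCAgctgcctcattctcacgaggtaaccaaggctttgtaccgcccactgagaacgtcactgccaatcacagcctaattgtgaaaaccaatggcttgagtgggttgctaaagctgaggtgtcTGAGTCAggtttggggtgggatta
Of 8 genes of the set with an entry in the table, 4 held GGAAGT (Cst7, Spp1, Itgax and Mrc1) and 3 held TGANTCA (Trem2, Cd68 and Itgax). Of all 32851 promoter windows of this length 19.7% held the first, 6.75% the second and 1.19% both, as Itgax did. The counts are per gene, a match in any window sufficing, over 11 windows (3 of Apoe, 2 of Spp1). The shares are per window, so the measures are not alike. In Itgax the AP-1 element began 56 bases before the start and the GGAAGT cores 121 and 41 bases before it. In Cst7 the core began 62 bases before the start, in Spp1 111 bases, and Cd68 carried AP-1 elements 149 and 24 bases before its start. The Trem2 match reads TGAATCA, with A at N, where those of Cd68 and Itgax have G. The downstream Spp1 window, chr5:104435942-104436191, ends next to the gene start given above and held neither motif. A match describes the letters only.

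Further genes of the same programme were counted from lists chosen beside the 10. Genes of these lists that are named for their level in mCherry 1, and Ccr2, were chosen after their values were seen. Of 20 other disease-associated microglia genes, 13 were highest in mCherry 1 and 8 stood there at 2 or more times the mean of mCherry 2 and 3, a difference that 3.74% of all tested genes and 8 of the 10 listed genes showed. Lyz2, the lysozyme of macrophages, stood at 244 FPKM in mCherry 1, 39.1 and 52.8 FPKM in mCherry 2 and 3, and between 63.8 and 75.3 FPKM in hND6. Clec7a, a receptor for fungal glucans, stood at 17.8 FPKM in mCherry 1 and between 3.97 and 7.40 FPKM in the other 5 libraries. Gpnmb, a glycoprotein of phagocytes, stood at 39.7 FPKM in mCherry 1 and between 11.4 and 19.3 FPKM elsewhere. In the comparison of the groups 14 of the 20 lay higher in hND6 (median 0.25), and 11 did on the TPM scale (median 0.10). In limma 0 passed (3 at an unadjusted p under 0.05, against 15.2% of all tested genes). Those of smallest p were Npc2, a lysosomal cholesterol carrier (44.0 ± 3.76 against 32.1 ± 4.52 FPKM, SD, n = 3 each; limma adjusted p = 0.207), the tetraspanin Cd63 (105 ± 10.9 against 78.1 ± 10.3 FPKM; adjusted p = 0.243) and Lgals1, a galectin (64.9 ± 10.8 against 43.6 ± 7.68 FPKM; adjusted p = 0.247). For these 3 genes all hND6 libraries lay above all mCherry libraries, and the level in mCherry 1 was between 1.12 and 1.25 times the mean of mCherry 2 and 3. No others of the 20 were without overlap, and 12.6% of all tested genes lay higher in hND6 without overlap. The 3 were named for their small p, which favours such separation.

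Among 15 partners of TREM2 signalling 12 were highest in mCherry 1, by smaller amounts (median log2 difference to mCherry 2 and 3 of 0.40, against 1.77 for the 10 genes and -0.0024 for all tested genes). Syk, the kinase recruited by TYROBP, stood at 5.34 FPKM in mCherry 1 and between 2.58 and 3.41 FPKM in the other 5 libraries, and Vav1, an exchange factor downstream of it, at 13.1 FPKM and between 6.34 and 8.63 FPKM. Between the groups 5 of the 15 lay higher and 10 lower in hND6 (median -0.10). The groups did not overlap for 1, with hND6 higher (12.6% of all tested genes). In limma 0 passed (0 at an unadjusted p under 0.05, against 15.2% of all tested genes). Those of smallest p were the kinase Btk (2.68 ± 0.428 against 2.005 ± 0.302 FPKM, SD, n = 3 each; limma adjusted p = 0.392), Spi1, which encodes the myeloid factor PU.1 (log2 fold change 0.16), and Grn, progranulin (0.14). The direction of Grn turned on the TPM scale and with the gene span trend removed.

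All 16 lysosomal proteases and cystatins lay higher in hND6 (median 0.27), though 13 of 16 did so on the TPM scale and 15 with median-of-ratios scaling or with the gene span trend removed. The groups did not overlap for 4 of the 16, against 12.6% of all tested genes with hND6 higher and 22.8% in either direction. In limma 0 passed (4 at an unadjusted p under 0.05, against 15.2% of all tested genes). Cst3, cystatin C, which many cells secrete, averaged 755 ± 44.1 FPKM with hND6 against 469.7 ± 87.3 FPKM (SD, n = 3 each; limma adjusted p = 0.193). Ctsl, cathepsin L (24.5 ± 2.26 against 18.8 ± 1.35 FPKM; limma adjusted p = 0.207), and the lysosomal membrane protein Lamp1 (331 ± 28.2 against 239.8 ± 31.0 FPKM; adjusted p = 0.224) were next. Of this list 6 of 16 were highest in mCherry 1, among them Ctsd, cathepsin D, at 87.4 FPKM against 29.3 FPKM in each of mCherry 2 and 3 and between 43.7 and 64.1 FPKM in hND6. Ctsl and Ctsd each overlap another entry on their strand, so their counts are uncertain. Among 15 tested lipoprotein genes 4 were highest in mCherry 1 and 9 lay higher in hND6 (median 0.044, but -0.10 on the TPM scale and -0.01 with quantile normalisation), with 0 past the threshold in limma (2 at an unadjusted p under 0.05). The 3 of smallest p were Nr1h2, a liver X receptor (25.0 ± 1.39 against 20.3 ± 0.393 FPKM, SD, n = 3 each; limma adjusted p = 0.199), clusterin, Clu (707 ± 62.7 against 503 ± 66.8 FPKM; adjusted p = 0.25), and Lmf1, which matures lipases (log2 fold change -0.21). Apoc2, Apoc4 and Gpihbp1 were listed at 0 in all libraries. Apoc2 and Apoc4 overlap another gene on their strand.

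**Figure D4:**
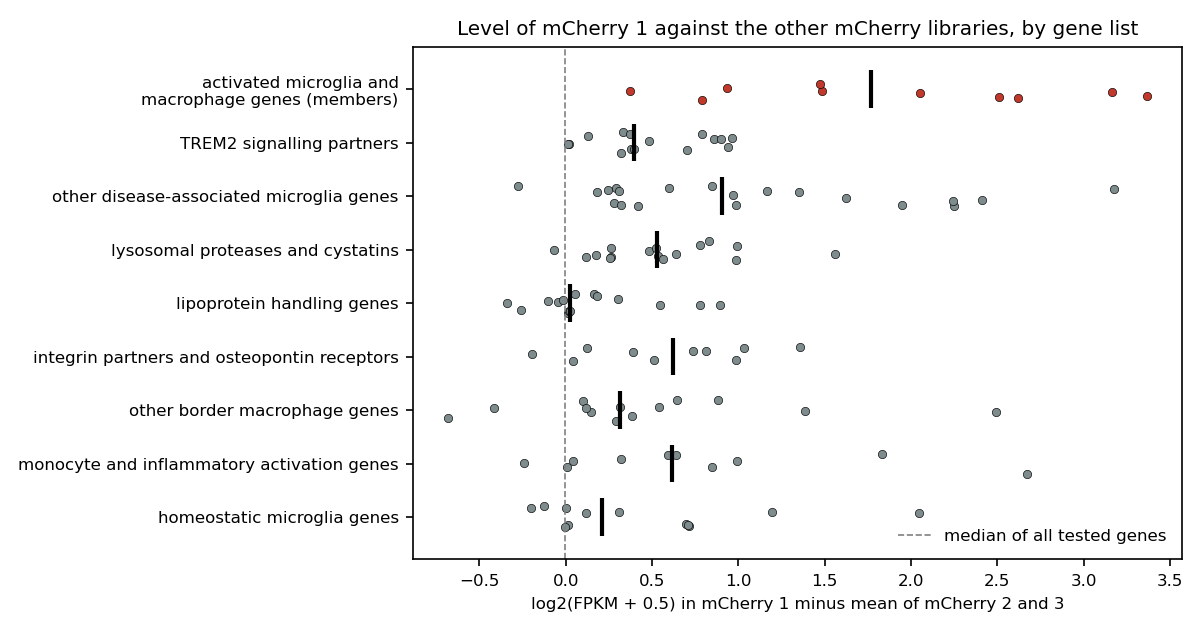
Difference between mCherry 1 and the mean of mCherry 2 and 3 on the log2(FPKM + 0.5) scale for each tested gene (points) of the 10 genes and of 8 related lists, with list medians as black bars and the median of all tested genes as a dashed line. The 10 genes have a median of 1.77, and resting microglia genes of 0.21.

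Of 10 tested integrin partners and osteopontin receptors 7 were highest in mCherry 1. Itgb2, the beta chain that pairs with the CD11c chain encoded by Itgax, stood at 19.2 FPKM there and between 6.60 and 12.8 FPKM in the other 5 libraries. Cd44, a receptor of osteopontin, stood at 24.0 FPKM and between 10.2 and 16.6 FPKM. Between the groups 8 of the 10 lay higher in hND6 (median 0.13), but 5 did on the TPM scale (median 0.011). The groups did not overlap for 1, with hND6 higher (12.6% of all tested genes). In limma 0 passed (0 at an unadjusted p under 0.05, against 15.2% of all tested genes). Itgb1, Itga4 and Itgb3 were of smallest p (log2 fold changes 0.18, -0.32 and 0.16). Itgam is entered under 2 overlapping identifiers that were both at or near 0, so it gives no information on CD11b.

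Of the 12 resting microglia genes 2, Gpr34 and Fcrls, were highest in mCherry 1, against 9 of the 10 activated genes, and their median log2 difference to mCherry 2 and 3 was 0.21. Between the groups 11 of the 12 lay higher in hND6 (median 0.43), 7 without overlap (12.6% of all tested genes with hND6 higher). On the TPM scale 11 also lay higher (median 0.29). In limma 0 passed (7 at an unadjusted p under 0.05, against 15.2% of all tested genes). The microglial genes Tmem119, P2ry12 and Siglech, of smallest p, had log2 fold changes of 0.56 ± 0.14, 0.54 ± 0.08 and 0.43 ± 0.09. Other border macrophage genes were mixed: 5 of 13 tested were highest in mCherry 1 and 9 lay higher in hND6 (median 0.15), 0 without overlap. On the TPM scale 7 of the 13 lay higher (median 0.038). In limma 0 passed (1 at an unadjusted p under 0.05). Pf4, a chemokine, had a log2 fold change of 0.66 ± 0.27, Folr2, a folate receptor, of 0.61 ± 0.31 and the transcription factor Maf of 0.21 ± 0.14 (limma adjusted p = 0.317, 0.401 and 0.529). Ms4a7, a membrane protein of macrophages on this list, stood at 7.86 FPKM in mCherry 1 and between 0.642 and 1.396 FPKM elsewhere.

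Monocyte and inflammatory genes were mostly low. Of 16 listed 10 were tested and 9 lay higher in hND6 (median 0.20), where 48.6% of all tested genes did. The count was 7 on the TPM scale (median 0.11) and 6 with the gene span trend removed (median 0.030). The groups did not overlap for 1, with hND6 higher (12.6% of all tested genes). In limma 0 passed (1 at an unadjusted p under 0.05, against 15.2% of all tested genes). Ly6c2, a surface protein of classical monocytes and of other cells, stood at 0.481, 0.147 and 0.899 FPKM in mCherry 1 to 3 and at 2.34, 2.52 and 6.04 FPKM in hND6 1 to 3, without overlap (log2 fold change 1.99 ± 0.42, limma adjusted p = 0.172); the mean of mCherry is close to the filter. The chemokine gene Ccl2, which attracts monocytes, had a log2 fold change of 1.01 ± 0.99 and the costimulatory gene Cd80 of 0.25 ± 0.21 (adjusted p = 0.672 and 0.61). With 1 library left out, the value of Ccl2 ran from 0.17 without mCherry 2 to 1.90 without mCherry 1. Ccr2, the monocyte receptor of that chemokine, lay between 0.48 and 0.77 FPKM in all libraries.

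Patterns over the 6 libraries were compared, as a description, between each of the 10 genes and 111 tested genes of the related lists. The gene most like Cd163 was the scavenger receptor gene Stab1 (Pearson r = 0.995), the one most like Cd68 was Cd33 (0.994), the one most like Tyrobp was the chemokine gene Ccl6 (0.993) and the one most like Itgax was Clec7a (0.989). For Trem2 it was Ctsh (0.983), for Cst7 Cybb (0.982), for Lpl Fcrls (0.989), for Spp1 Cd33 (0.976), for Apoe Cd80 (0.988) and for Mrc1 Dab2 (0.873). These values rest on 6 libraries of which mCherry 1 holds the extreme for most genes. Mrc1 had no list gene with r over 0.9, Cd163 had 3, and Trem2 had 24.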

How the data were processed

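Total RNA of mouse optic nerve, depleted of ribosomal RNA, was sequenced from stranded libraries. The values are FPKM as deposited, per the labels. Tools in the submitters' processing notes are STAR, HTSeq, Trim Galore and CASAVA 1.4, and builds GRCm38 and mm10, with no role for each. Samples were grouped by title. The 6 single tables equalled the combined table. FPKM times exon length gave whole reads (within 0.1 read) for at least 99.99% of values above 0, so reads were recovered. Genes averaging 0.5 FPKM or more were tested on log2(FPKM + 0.5) with limma 3.58.1 in R 4.3.3 (intensity trend, Benjamini-Hochberg adjustment, threshold 0.05). The fit was tested on simulated data. The 10 genes, lists, tests and alternatives were chosen with earlier results of these data known. All 10 genes, and the 3 of smallest p of each related list, are named. One gene per member of most similar pattern is added. Alternatives were other pseudocounts, filters, scalings, variance priors, weights, a replicate block, sex, gene span, voom (with trimmed-mean scaling of recovered reads) and leaving out each library. Promoter sequences are from RefSeq (GRCm38.p6), and 8 of 10 genes matched. No replicate pair agreed within counting noise.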

Additional observations from a re-analysis of the deposited data

How the results depend on the processing

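The result that 0 of the 10 genes passed held in all 20 alternatives, with log2 fold changes of the single genes between -1.06 and 1.34. Over all genes 7 passed as higher in hND6 in limma. This count was 1 with no filter on low values, 4 with sex as a covariate, 0 with voom on recovered reads and 0 with the replicate block. With single libraries left out it ran from 0 (without mCherry 2) to 116 (without mCherry 3), and the count of lower genes from 0 to 15. The number of the 10 genes whose groups did not overlap ran from 0 to 6, and their median from -0.038 to 0.76. With single libraries left out, log2 fold changes ran from -0.041 to 1.04 for Cd68, -1.06 to 0.40 for Lpl, -0.87 to 0.47 for Itgax, -0.86 to 1.06 for Cst7, -0.32 to 1.34 for Spp1, -0.024 to 0.45 for Mrc1 and -0.16 to 0.43 for Cd163; the upper end was without mCherry 1 except for Mrc1. Cst7 also turned to 0.048 with a pseudocount of 0.1, 0.13 with voom and 0.55 with sex as a covariate. Library weights gave -0.00085 for Spp1 and -0.052 for Cd163. Quantile normalisation gave -0.37 for Apoe and -0.017 for Clu. Grn was -0.0032 on the TPM scale and -0.0051 once the trend with gene span was taken out. The cause of these turns was not tested. On the TPM scale the median of all genes was -0.15 and that of the 10 genes 0.13. Deviations from the group means correlated at -0.42, 0.36 and -0.20 between libraries of the same replicate number, 1 to 3. Both mCherry 1 (0.26) and mCherry 2 (0.36) correlated best with hND6 2, and mCherry 3 with hND6 1 (0.56). With 3 libraries per group these deviations depend on each other, so they cannot decide whether the numbers pair the libraries. The replicate block changed no call among the 10 genes. Depth limits Cst7 most, with 21 reads in mCherry 2.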

Other observations

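Library mCherry 1 was also compared with the rest across all genes, a description with no test that was chosen after the values were seen. The 13678 tested protein-coding genes were ordered by how far log2(FPKM + 0.5) in mCherry 1 lay above the highest of the other 5 libraries. The first 12 held 4 of the 10 activated microglia genes: Lpl at rank 2, Itgax at 5, Spp1 at 6 and Cst7 at 10. Cd68 was at rank 68, Trem2 at 273, Cd163 at 417, Tyrobp at 433, Apoe at 1363 and Mrc1 at 9991.

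Of the others among the first 12, Ms4a7 (rank 1) and Lyz2 (rank 4) are given above and are known from macrophages. Mmp12, macrophage elastase, stood at 2.41 FPKM in mCherry 1, between 0.00836 and 0.0216 FPKM in mCherry 2 and 3 and between 0.113 and 0.610 FPKM in hND6. Tnfsf11, the RANK ligand that drives osteoclast formation, stood at 9.68 FPKM in mCherry 1 and between 0.574 and 2.47 FPKM elsewhere. Cdkn2a, which encodes cell cycle inhibitors used as senescence markers, stood at 2.83 FPKM in mCherry 1 and at most 0.575 FPKM in the other libraries. The rest of the first 12 were Tgm1, a transglutaminase (rank 8), the predicted gene Gm8369 (rank 9) and Fcrls (rank 12), which is on the list of resting microglia genes and stood at 14.6 FPKM in mCherry 1 and between 2.08 and 5.52 FPKM elsewhere.

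The chemokine genes Ccl3 and Ccl4 split the libraries further. Ccl3 stood at 9.08, 0.354 and 0.812 FPKM in mCherry 1 to 3 and at 1.75, 2.90 and 5.81 FPKM in hND6 1 to 3. Ccl4 stood at 4.19, 0.503 and 0.471 FPKM in mCherry and at 1.19, 1.99 and 3.90 FPKM in hND6. For both, all hND6 libraries lay above mCherry 2 and 3 and below mCherry 1.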
